A study of Mus musculus with 6 samples.

Results

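The ADAMTS proteases and their TIMP inhibitors were followed in mouse dermal fibroblasts exposed to interleukin-1 (IL-1), a cytokine of acute inflammation. The group held 9 genes, Adamts1, Adamts2, Adamts4, Adamts5, Adamts9, Timp1, Timp2, Timp3 and Timp4, and was defined by name: every non-control probe whose gene name in the scanner output was one of these was taken. These are 9 of the 29185 genes named on the array. This gave 18 of the 41174 probes of the array, and 17 of them, covering all 9 genes, were bright enough to be fitted among 30577 probes. The rule uses names and no measured value, although the 9 names were proposed with earlier results of these data known.

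Cultured C57BL/6 dermal fibroblasts had received 20 ng/ml IL-1 for 1, 2 or 4 h, or no IL-1 (0 h), and each treated RNA was hybridised together with untreated RNA on Agilent arrays with 2 colours. Each time point had 2 arrays with the dyes exchanged, treated RNA in Cy5 on the first and in Cy3 on the second, so the 6 arrays gave 3 treated samples (1, 2 and 4 h) against untreated RNA. The labels give neither the form of IL-1 nor the age or sex of the mice, and do not say that the RNAs came from separate cultures. All values below are log2 ratios of IL-1-treated over untreated signal, so a negative value is lower in treated cells. The mean response of a probe is its average over the 3 times, each time being the mean of its dye-swapped pair, tested against 0 with limma and adjusted by the Benjamini-Hochberg method over all 30577 probes at a threshold of 0.05. The 3 treated samples therefore serve as the replicates of that mean, so a change between the times enters its SE and p-value. The spread of untreated cells is left out because untreated RNA is the denominator of every ratio.

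ADAMTS enzymes are secreted zinc metalloproteinases that carry thrombospondin repeats with which they hold to the extracellular matrix. ADAMTS1, ADAMTS4, ADAMTS5 and ADAMTS9 belong to the branch that cuts the large hyaluronan-binding proteoglycans aggrecan and versican, ADAMTS4 and ADAMTS5 being the main aggrecanases of cartilage, whereas ADAMTS2 removes the amino-terminal propeptide of fibrillar procollagens. TIMPs are small secreted proteins that block matrix metalloproteinases by occupying the active-site zinc, and TIMP3, which is held in the matrix, is the TIMP that also inhibits ADAMTS4 and ADAMTS5. In dermis these proteins take part in matrix turnover and repair.

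The arrays were alike in brightness: the median signal of a spot lay between 124.3 and 137.7 in Cy5 and between 121.8 and 127.5 in Cy3, against medians of 68.4 to 74.1 and 96.3 to 104.4 for the negative-control spots of those channels. All 10 dermal fibroblast markers examined, collagen genes, Pdgfra and Thy1 among them, were well above background in every untreated channel. So were 4 of 4 smooth muscle or pericyte, 4 of 4 Schwann cell, 5 of 6 keratinocyte and 5 of 6 leukocyte markers. Of the endothelial and melanocyte markers, 1 of 5 each were. The lists differed in brightness. The median raw Cy3 signal was 13365 over the fibroblast list, against 104 to 155 for lists of keratinocyte, endothelial, leukocyte, melanocyte, smooth muscle and Schwann cell markers. The brightest smooth muscle or pericyte marker had a mean raw Cy3 signal of 2230. Of 22 measured markers of those other cell types, 5 passed the test upward and 1 downward with means between -0.20 and 0.21, and their summed normalised intensity was 6063 to 6625 in IL-1-treated channels and 5687 to 6281 in untreated channels. Their part in the results was not tested. Cxcl1, a chemokine gene that IL-1 induces in fibroblasts, was 73.9-fold higher at 1 h in the direction the dye labels give.

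The promoters of Adamts1, which fell, and of Timp1, which rose slightly, are shown because they are the members with a called change on at least 2 probes whose promoters were in the table. The sequences are RefSeq's, build GRCm38.p6, 5′ to 3′ on the gene's strand, from 250 bases before to 50 bases after the annotated start; capitals mark TATAAA in Adamts1 (chr16:85803064-85803363, minus strand, at position -32 from the start) and TGAGTAA, an activator protein 1 (AP-1) type element, in Timp1 (chrX:20869916-20870215, plus strand, at position 26).
Adamts1: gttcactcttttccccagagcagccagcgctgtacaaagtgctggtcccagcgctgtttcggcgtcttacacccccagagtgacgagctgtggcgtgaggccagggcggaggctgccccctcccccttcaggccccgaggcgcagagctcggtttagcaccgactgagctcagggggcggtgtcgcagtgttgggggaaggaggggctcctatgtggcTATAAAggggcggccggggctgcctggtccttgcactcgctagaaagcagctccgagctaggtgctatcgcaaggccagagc
Timp1: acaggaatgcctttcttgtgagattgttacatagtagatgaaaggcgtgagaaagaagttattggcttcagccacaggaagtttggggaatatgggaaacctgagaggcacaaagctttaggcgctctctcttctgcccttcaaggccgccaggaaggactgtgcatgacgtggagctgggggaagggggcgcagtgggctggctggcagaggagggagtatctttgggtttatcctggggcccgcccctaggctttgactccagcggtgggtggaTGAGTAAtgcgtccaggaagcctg

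The promoter table held 7 of the 9 members. Neither the AP-1 motif TGANTCA nor the NF-kB motif was found on either strand in any of these 7 windows, while 7.81% and 4.51% of all 32851 promoters of the same length held them. The search for TATAAA and TGAGTAA was added after the sequences had been seen; 13.6% and 2.68% of all promoters held them, and a match or its lack describes only the letters in this window. Adamts1 and Adamts5 are neighbours on mouse chromosome 16 in the RefSeq annotation of that assembly, with no protein-coding gene annotated between them.

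Among the members, Adamts1 and Adamts5 were lower after IL-1 and Adamts4 was higher. Timp1 was slightly higher, a call that median centring of the arrays or processed signals removed, Timp2 was slightly lower, and Adamts2, Adamts9, Timp3 and Timp4 did not pass the test. Processed signals also removed the calls of Adamts4, Timp2 and both Adamts5 probes. Without the 2 h sample, Adamts4, Timp2 and the brighter Adamts5 probe lost theirs. In probes, 4 of 17 passed upward, where 10.5% of all fitted probes did, and 5 of 17 passed downward, where 11.4% of all did. Those passing upward were the Adamts4 probe and the 3 Timp1 probes, of which A_52_P87713 was saturated. With each array centred on its median in place of loess, 1 member probe passed upward and 7 downward, as did 1680 and 7452 of all probes. The 5 of 9 genes with a call on any probe were Adamts1, Adamts4, Adamts5, Timp1 and Timp2. Over all fitted genes, 5614 of 22209 had such a call. The members had 17 fitted probes for 9 genes, against 30577 for 22209, so a call on any probe was likelier per member gene. The median mean response was 0.03 over the member probes and 0.002 over all probes fitted. The members' dye-swapped arrays lay a median of 0.065 from their pair mean, against 0.062 for all probes.

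**Figure D1:**
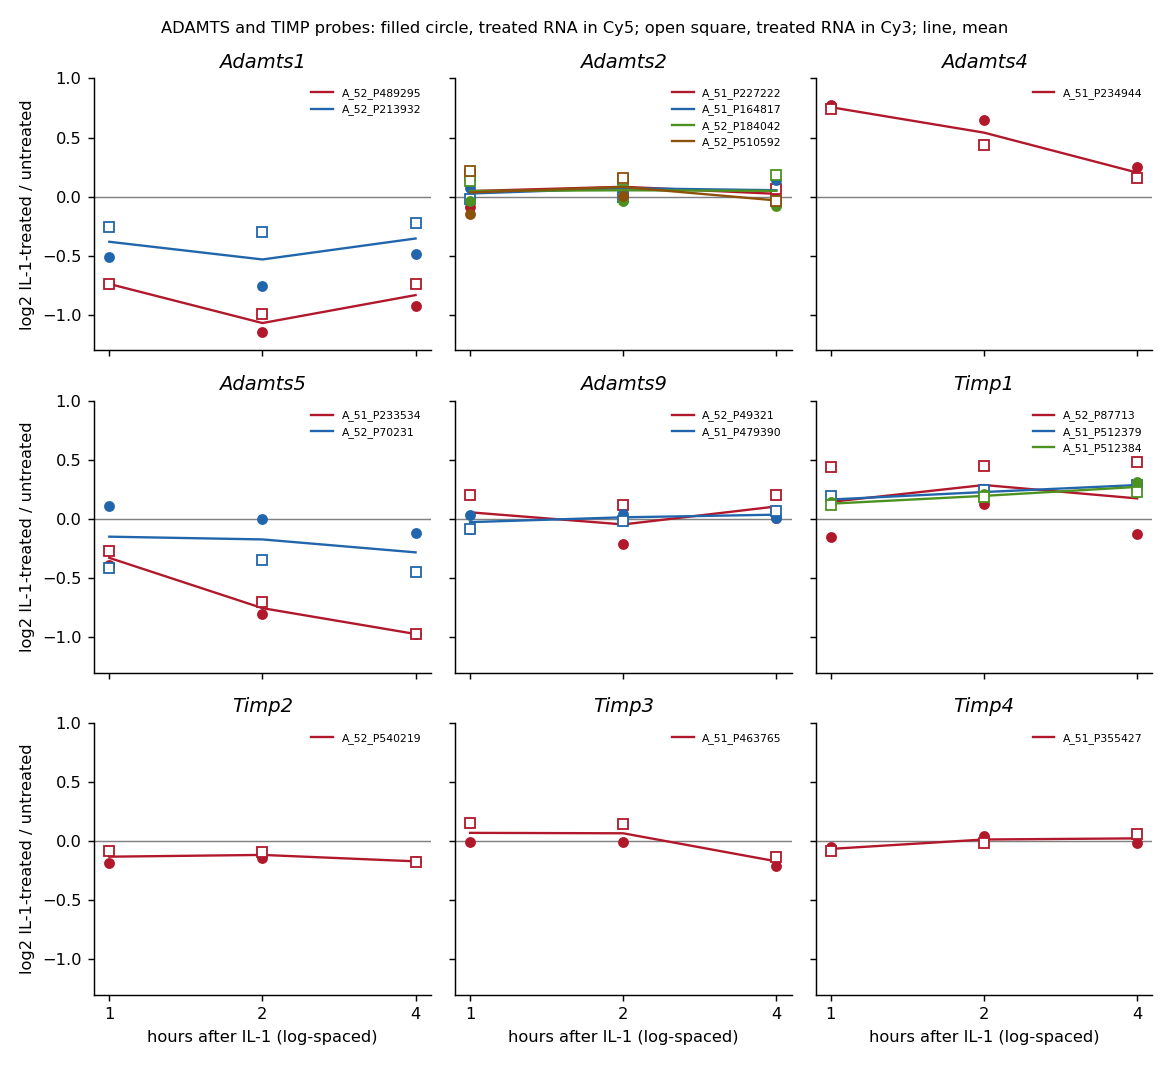
Log2 ratio of IL-1-treated over untreated signal (vertical axis) at 1, 2 and 4 h (horizontal axis, log-spaced) for every fitted probe of the 9 genes; filled circles are arrays with treated RNA in Cy5, open squares arrays with treated RNA in Cy3, and lines join the means of each pair. Both Adamts1 probes and the brighter Adamts5 probe lie below 0 on all 6 arrays, Adamts4 and both unsaturated Timp1 probes lie above 0 on all 6, and the saturated Timp1 probe A_52_P87713 is split by dye orientation, with its open squares at 0.44 to 0.48.

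Adamts1, which encodes a protease cutting versican and aggrecan, had the deepest fall of the members. On probe A_52_P489295 its normalised intensity at 1 h was 1516 to 1628 in IL-1-treated RNA and 2533 to 2711 in untreated RNA. At 2 h it was 1180 and 1259 in treated RNA, against 2611 and 2505 in untreated RNA. At 4 h it was 1507 and 1525 in treated RNA, against 2861 and 2547 in untreated RNA. Every treated value was below every untreated value, so the channels did not overlap. The dye-swapped arrays of each time hold the same RNAs, so these channels are repeated hybridisations and not independent replicates. The share of all fitted probes that separate in this way was not counted, for this probe or for the dimmer Adamts1 probe below.

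As log2 ratios, the pair of Adamts1 arrays at 1 h gave -0.74 and -0.74, the 2 h pair -1.15 and -0.99, and the 4 h pair -0.92 and -0.74. The pair means corresponded to 0.600, 0.477 and 0.562 times the untreated level, so that the lowest point was at 2 h. The mean response was -0.88 ± 0.060 (SE, n = 3), or 0.543-fold, with a 95% confidence interval of -1.02 to -0.74 and limma's adjusted p = 0.000813, and only 2 of the 30577 probes had a lower mean. The second Adamts1 probe, A_52_P213932, is dim, with 135 to 180 in treated RNA and 210 to 241 in untreated RNA, ranges that again did not overlap. Its mean response was -0.42 ± 0.038 (SE, n = 3, adjusted p = 0.00168), the same direction with a smaller size, and all 6 of its arrays were below 0. In bulk RNA such as this, fewer cells that express a gene and less of its RNA per cell cannot be told apart.

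Adamts5, an aggrecanase, fell further at each later time on its brighter probe, A_51_P233534. Its normalised intensity was 1600 and 1434 in RNA treated for 1 h, against 2098 and 1727 in the untreated RNA of the same arrays. It was 745 and 1156 in RNA treated for 2 h, against 1303 and 1882 in untreated RNA. It was 960 and 943 in RNA treated for 4 h, against 1889 and 1850 in untreated RNA. Treated values lay below the untreated value of their own array on all 6 arrays, but across arrays the ranges overlapped, since 1 untreated value at 2 h lay below both treated values at 1 h.

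The Adamts5 log2 ratios of the 1 h arrays were -0.39 and -0.27, those of the 2 h arrays -0.81 and -0.70, and those of the 4 h arrays -0.98 and -0.97, or 0.796, 0.593 and 0.509 times the untreated level. The mean response was -0.69 ± 0.109 (SE, n = 3, 0.621-fold, limma adjusted p = 0.00812), the seventh lowest of all probes by rank. The change with time was tested as a slope on log2 time with 1 residual degree of freedom. Its slope was -0.32 ± 0.036 per doubling of time (SE, adjusted p = 0.0247), and 0.242% of all probes had a falling slope that passed. The probe therefore belonged to a small class of 74 probes. The slope call was lost with a normexp offset of 16 (adjusted p = 0.480), with processed signals as the scanner software gives them (adjusted p = 0.533) and with the arrays of treated RNA in Cy5 alone (adjusted p = 0.191). The call of the mean response was lost with processed signals (-0.72, adjusted p = 0.0687) and without the 2 h sample (-0.65, adjusted p = 0.0565).

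A second probe assigned to Adamts5, A_52_P70231, was designed on a cDNA clone and is dim, at 73.1 to 90.2 in treated RNA and 82.6 to 110 in untreated RNA, ranges that overlap. Its dye orientations differed: the arrays with treated RNA in Cy5 gave 0.11, 0.00 and -0.12 at 1, 2 and 4 h, whereas those with treated RNA in Cy3 gave -0.41, -0.35 and -0.45. Its pair means passed the test downward (mean -0.20 ± 0.032, SE, n = 3, adjusted p = 0.00804), but the mean was -0.002 on the Cy5 arrays alone, and -0.61 with processed signals, where the call was lost (adjusted p = 0.0619). Its fall thus rested on the arrays with treated RNA in Cy3.

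Adamts4, the other main aggrecanase, went the opposite way to Adamts1 and Adamts5 and was highest at the first time examined. Its only probe, A_51_P234944, is dim. Normalised intensities were 241 and 178 in RNA treated for 1 h, against 141 and 107 in the untreated RNA of the same arrays. They were 208 and 159 in RNA treated for 2 h, against 133 and 117 in untreated RNA. They were 166 and 134 in RNA treated for 4 h, against 140 and 120 in untreated RNA. Treated exceeded untreated on each of the 6 arrays, and across arrays the groups overlapped through 1 treated value at 4 h, 134, which lay below the 2 highest untreated values.

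Adamts4 log2 ratios were 0.78 and 0.74 on the 1 h arrays, 0.64 and 0.44 on the 2 h arrays, and 0.25 and 0.16 on the 4 h arrays, corresponding to 1.69, 1.46 and 1.15 times the untreated level. The mean response was 0.50 ± 0.093 (SE, n = 3, 1.41-fold, adjusted p = 0.0137), and the slope was -0.28 ± 0.031 per doubling of time (SE, adjusted p = 0.0250). Adamts4 and Adamts5 were thus the 2 members with a falling slope, Adamts4 toward the untreated level and Adamts5 away from it. For Adamts4 the size depended on how background was handled: at 1 h the ratio was 1.19 when the software's processed signals were used and 0.63 with no background correction. The mean call was lost with the processed signals (0.82, adjusted p = 0.0731) and without the 2 h sample (0.48, adjusted p = 0.0814). The slope call was lost with processed signals (adjusted p = 0.533), with an offset of 16 (adjusted p = 0.474) and on either dye orientation alone (adjusted p = 0.0577 with treated RNA in Cy3 and 0.240 with treated RNA in Cy5).

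**Figure D2:**
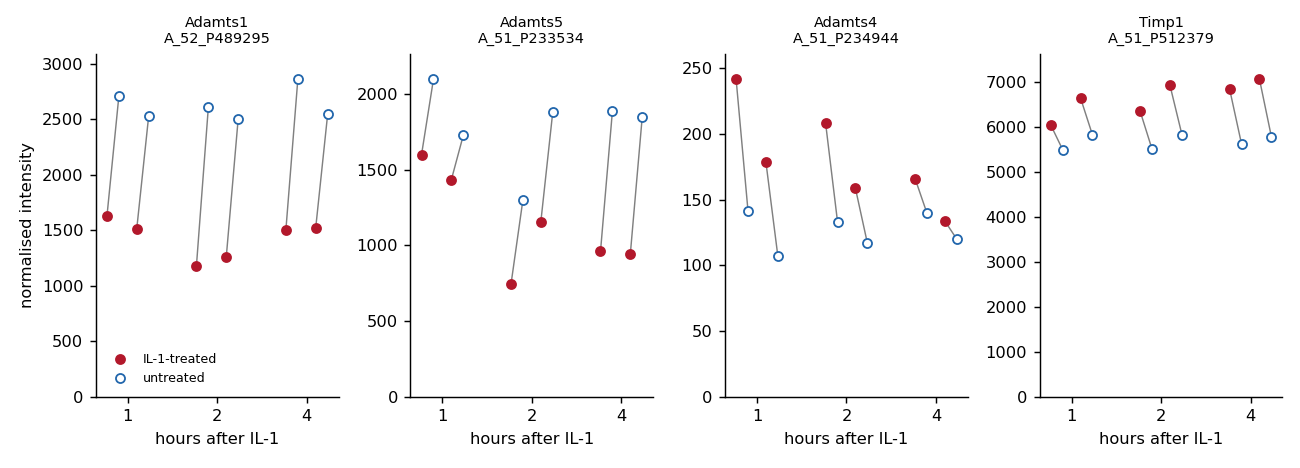
Normalised intensity (vertical axis, linear, from 0) of Adamts1, Adamts5, Adamts4 and Timp1 at 1, 2 and 4 h, 1 probe each; every line joins the IL-1-treated (filled, left) and untreated (open, right) channel of 1 array. Treated is below untreated on each array for Adamts1 and Adamts5, and above it for Adamts4 and Timp1; the Adamts4 gap is smallest at 4 h.

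A probe was counted as 2-fold changed at a given time where both of its dye-swapped arrays reached a log2 ratio of 1 upward or -1 downward, a rule of size with no test, and none of the 17 member probes qualified at any time. At 1 h 0.17% of all probes qualified upward, at 2 h 0.134% and at 4 h 0.111%. Downward the shares were 0.00654% at 1 h and 0 of 30577 at 2 h and at 4 h. Adamts1 at 2 h came nearest, at -1.15 and -0.99.

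Adamts2, the procollagen amino-propeptidase, was measured by 4 probes and none passed. Its brightest probe, A_51_P227222, had 3154 to 3734 in treated RNA and 3114 to 3505 in untreated RNA, overlapping ranges. The 4 mean responses lay between 0.03 and 0.05, with adjusted p between 0.166 and 0.551. For the brightest probe the 95% confidence interval was -0.01 to 0.11. With each array centred on its median instead of loess, this probe's mean was -0.11 (adjusted p = 0.0234), so its direction depends on the normalisation.

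Adamts9, which like Adamts1 encodes a versican-cutting protease, had 3 probes, of which A_51_P407417 was well above background on only 3 treated and 4 untreated arrays and was not fitted. The other two had mean responses of 0.01 (A_51_P479390, adjusted p = 0.877) and 0.04 (A_52_P49321, adjusted p = 0.489). On the brighter, A_52_P49321, normalised intensity was 172 to 214 in treated RNA and 184 to 204 in untreated RNA, and the 95% confidence interval of its mean was -0.04 to 0.12.

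Timp1, a secreted inhibitor of matrix metalloproteinases, was slightly higher in treated cells on both of its unsaturated probes. On A_51_P512379 normalised intensity was 6041 and 6639 in RNA treated for 1 h, against 5492 and 5819 in untreated RNA. It was 6341 and 6917 in RNA treated for 2 h, against 5498 and 5824 in untreated RNA. It was 6831 and 7054 in RNA treated for 4 h, against 5611 and 5776 in untreated RNA. All 6 treated channels lay above all 6 untreated channels. The limits stated for Adamts1 hold here too: the channels are repeated hybridisations, and the share of all probes that separate was not counted. The log2 ratios were 0.16, 0.23 and 0.29 at 1, 2 and 4 h, or 1.12, 1.17 and 1.22 times untreated, with a mean of 0.23 ± 0.030 (SE, n = 3, adjusted p = 0.00458).

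The second unsaturated probe of Timp1, A_51_P512384, gave 7101 to 8067 in treated RNA and 6179 to 6798 in untreated RNA, again without overlap. Its ratios were 0.13, 0.19 and 0.27, and its mean 0.20 ± 0.032 (SE, n = 3, adjusted p = 0.00864). The slopes of these probes, 0.06 and 0.07 per doubling of time, did not pass (adjusted p = 0.523 and 0.447). The third probe, A_52_P87713, was saturated in Cy5 on all 6 arrays, which is the treated channel on 3 arrays and the untreated channel on the other 3. It gave -0.15, 0.13 and -0.13 with treated RNA in saturated Cy5 and 0.44, 0.45 and 0.48 with untreated RNA in saturated Cy5, so its pair mean of 0.20 (adjusted p = 0.00904) rests on capped signals. With median centring the means were 0.06, 0.03 and 0.003 for A_51_P512379, A_51_P512384 and A_52_P87713, and none passed. With processed signals they were 0.22, 0.19 and 0.19, and none passed either (adjusted p = 0.0560, 0.0718 and 0.0828), and without the 2 h sample A_51_P512384 and A_52_P87713 lost the call (adjusted p = 0.0630 and 0.0567).

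Timp2, which also takes part in the activation of MMP2 at the cell surface, was slightly lower. Its probe A_52_P540219 had normalised intensities of 3715 to 5662 in treated RNA and 4091 to 6420 in untreated RNA, ranges that overlap because the arrays differed in this probe's brightness. Within arrays the direction was the same on all 6, with ratios from -0.18 to -0.08. The mean response was -0.14 ± 0.024 (SE, n = 3, 0.908-fold, adjusted p = 0.0104). The call was lost with processed signals (-0.15, adjusted p = 0.0725) and without the 2 h sample (-0.15, adjusted p = 0.0646). With median centring the mean was -0.30 and passed (adjusted p = 0.00034).

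Timp3, the inhibitor of ADAMTS4 and ADAMTS5, had ratios of 0.07 at 1 h, 0.07 at 2 h and -0.17 at 4 h on A_51_P463765. Treated RNA had 4685 to 5860 and untreated RNA 4947 to 6090, overlapping ranges, and both 4 h arrays were below 0 (-0.21 and -0.13). The mean response was -0.01 (adjusted p = 0.901, 95% confidence interval -0.13 to 0.11) and the slope -0.12 per doubling of time did not pass (adjusted p = 0.334). Median centring gave a mean of -0.18 that passed (adjusted p = 0.0177). Timp4, a TIMP best known from heart, was dim, with 104 to 132 in treated RNA and 108 to 128 in untreated RNA on A_51_P355427, and its mean response was -0.01 (adjusted p = 0.844, 95% confidence interval -0.08 to 0.06).

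**Figure D3:**
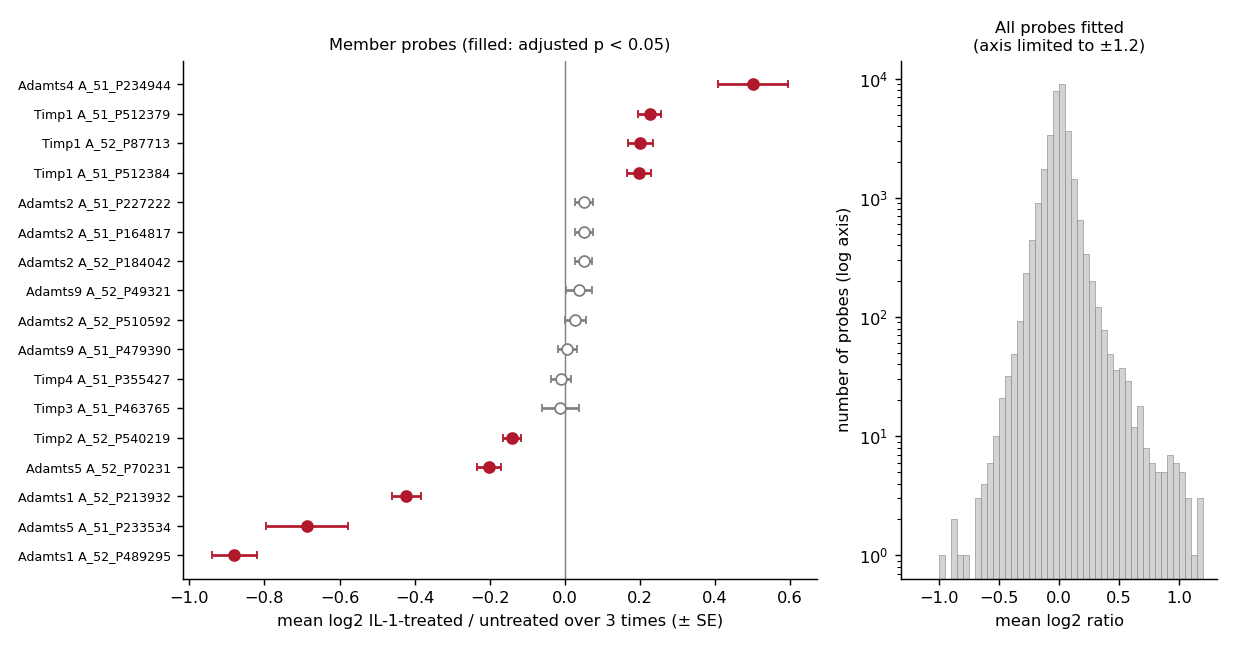
Left, mean log2 ratio of IL-1-treated over untreated signal over the 3 times (horizontal axis) with its standard error for each of the 17 fitted member probes, filled where adjusted p is under 0.05; right, the number of probes (log axis) by mean log2 ratio for all fitted probes, with the axis limited to 1.2 in size. The members span -0.88 (Adamts1) to 0.50 (Adamts4), and 9 of the 17 are filled.

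Probes of the same gene did not give the same size. The bright Adamts1 probe had a mean of -0.88 and the dim one -0.42. The corresponding pair for Adamts5 was -0.69 and -0.20. With the scanner's processed signals the dim probes moved to -0.64 for Adamts1 and -0.61 for Adamts5, while the bright ones were -0.91 and -0.72. Neither Adamts5 mean passed there (adjusted p = 0.0619 for the dim probe and 0.0687 for the bright one). In the reported processing the dim Adamts5 mean was -0.002 with treated RNA in Cy5 alone. The cause of these differences in size was not tested. Both Adamts1 probes kept their call under each of the alternatives run, with adjusted p of at most 0.0463.

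**Figure D4:**
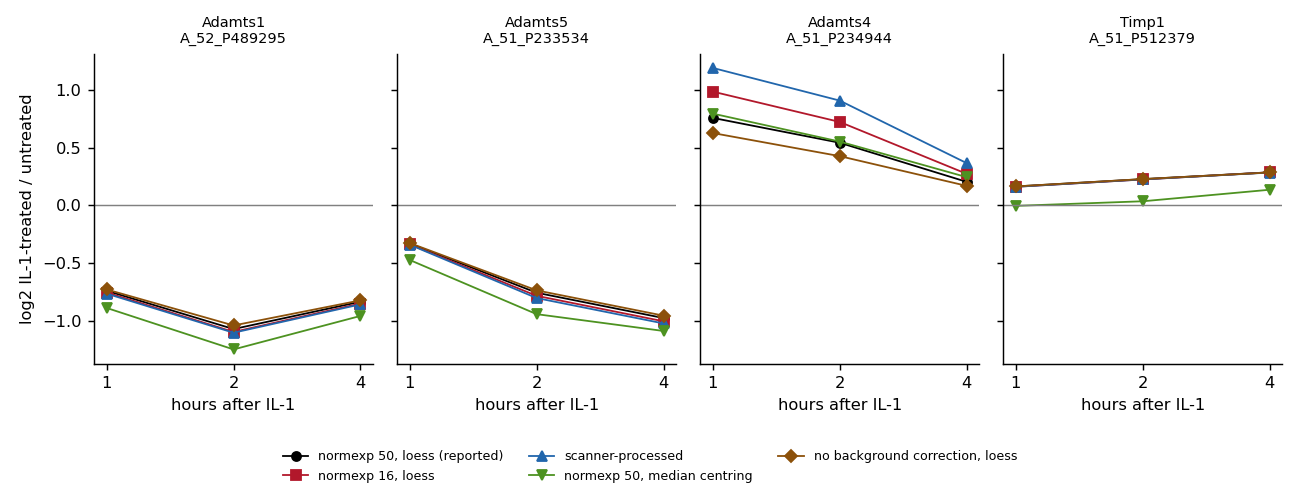
Log2 ratio of IL-1-treated over untreated signal (vertical axis) at 1, 2 and 4 h for the same 4 probes as in the intensity plot, under 5 ways of handling background and scale (symbols). The lines for Adamts1 and Adamts5 nearly coincide apart from median centring, the Adamts4 lines fan out between 0.63 and 1.19 at 1 h, and Timp1 at 1 h is at 0.16 with loess and at -0.004 with median centring.

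The genes whose 6 log2 ratios lay nearest to those of a member were named by Euclidean distance over the arrays. For Adamts1 (A_52_P489295) these were Zfp503 (distance 0.677, mean -0.96), Ephb3 (distance 0.733, mean -0.65) and Flrt3 (distance 0.758, mean -0.63). For Adamts4 they were Resf1 (distance 0.150, mean 0.48), Ibrdc3 (distance 0.248, mean 0.54) and Slfn2 (distance 0.273, mean 0.52). For Adamts5 (A_51_P233534) they were Lgalsl (distance 0.545, mean -0.52), Lrrn3 (distance 0.588, mean -0.49) and Setbp1 (distance 0.594, mean -0.46). The distances were smaller for Adamts4 than for Adamts1 and Adamts5, the 3 members for which they were computed, and Adamts1 and Adamts5 had means lower than most genes listed beside them, Zfp503 excepted.

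Other genes of matrix proteolysis were counted with 1 probe per gene, the brightest, over all 22209 genes, of which 10.8% passed upward and 11.1% downward. The median mean response over all genes was 0.004. Of 10 measured further ADAMTS proteases 1 passed upward and 0 downward, with a median of 0.02. The gene that rose was Adamts7, a protease that cuts cartilage oligomeric matrix protein, at 0.28 (adjusted p = 0.00935), and its other probe gave 0.09 (adjusted p = 0.0664). None of 5 measured ADAMTS-like proteins, matrix relatives without a catalytic domain, passed, the largest mean being 0.06 for Adamtsl5 (adjusted p = 0.193).

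Of 9 ADAM proteases, the membrane-anchored relatives, 4 passed upward and 1 downward, with a median of 0.05. The largest on a brightest probe was Adam17, the sheddase that releases tumour necrosis factor, at 0.24 (adjusted p = 0.00286). A dimmer probe of Adam19 had 0.30 (adjusted p = 0.00136), while its brightest had 0.10 (adjusted p = 0.0451) and its other 0.04 (adjusted p = 0.308). Of 15 matrix metalloproteinases, which TIMPs inhibit, 5 passed upward and 1 downward, with a median of 0.03. Mmp9, a gelatinase, had ratios of 0.30, 0.52 and 0.88 at 1, 2 and 4 h and a mean of 0.57 (adjusted p = 0.0104). Mmp3, stromelysin-1, had ratios of 0.22, 0.41 and 0.91 and a mean of 0.52 (adjusted p = 0.0262). Both had a rising slope that passed, 0.29 for Mmp9 (adjusted p = 0.0243) and 0.35 for Mmp3 (adjusted p = 0.0352), where 0.196% of all probes did. The other Mmp9 probe had a mean of 0.46 (adjusted p = 0.00555) and a slope of 0.19 that did not pass (adjusted p = 0.0554). With processed signals or an offset of 16, no rising slope passed on any probe. The Mmp9 and Mmp3 ratios were largest at 4 h, the time at which the Adamts4 ratio was smallest.

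Of 11 genes for other inhibitors, clearance receptors and activating enzymes, 3 passed upward and 1 downward, with a median of 0.005. Sdc4, syndecan-4, a cell-surface heparan sulphate proteoglycan, had ratios of 0.76, 0.94 and 0.73 and a mean of 0.81 (adjusted p = 0.000466), and its second probe had 0.46 (adjusted p = 0.00140). Lrp1, the endocytic receptor that clears ADAMTS4, ADAMTS5 and TIMP3, had 0.31 on its brightest probe (adjusted p = 0.00118) and 0.05 on its other (adjusted p = 0.162). Lrp1 was chosen after its values were seen.

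Of 20 measured ADAMTS substrates 6 passed upward and 4 downward, with a median of 0.04. Among them Fn1, fibronectin, had the largest mean of any probe, 0.48 (A_52_P11817, adjusted p = 0.000784). Its brightest probe had 0.35 (adjusted p = 0.00113) and its other 0.09 (adjusted p = 0.0431). On brightest probes Dcn, decorin, was largest, with 0.14, 0.44 and 0.80 at 1, 2 and 4 h. Its mean was 0.46 (adjusted p = 0.0297) and its slope 0.33 (adjusted p = 0.00896). Versican (Vcan) and aggrecan (Acan), the substrates of the aggrecanase branch, did not pass on any of their probes, Vcan with 0.04 (adjusted p = 0.350) and Acan with -0.006 (adjusted p = 0.938) on the brightest. Thbs1, thrombospondin-1, had the lowest mean on a brightest probe, -0.40 (adjusted p = 0.000900), while its 2 further probes gave -0.04 and -0.04 and did not pass. Dcn, Vcan, Acan and Thbs1 were chosen after their values were seen. Of 5 genes of procollagen processing 2 passed upward and 0 downward, with a median of 0.05, and Bmp1, the carboxy-propeptidase that acts beside ADAMTS2 on procollagen, was largest at 0.29 (adjusted p = 0.00222).

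**Figure D5:**
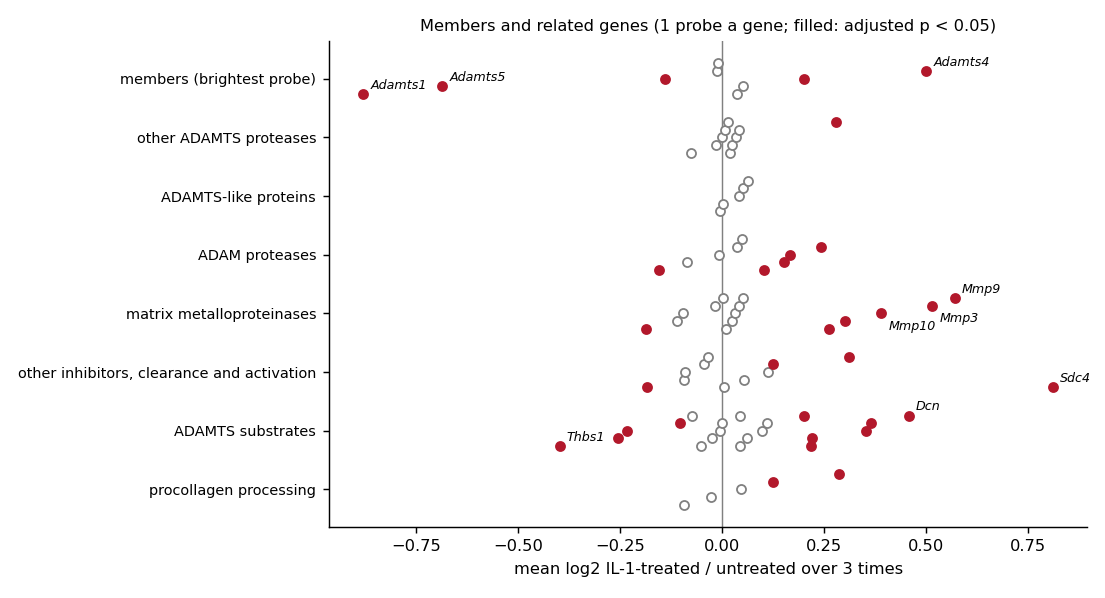
Mean log2 ratio of IL-1-treated over untreated signal over the 3 times (horizontal axis), 1 point per gene on its brightest probe, for the 9 members (top row) and 7 lists of related genes; filled points have adjusted p under 0.05, and vertical offsets within a row only separate points. Adamts1 and Adamts5 lie lower than any gene of the 7 lists, and Sdc4, Mmp9 and Mmp3 lie higher than Adamts4.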

How the data were processed

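Scanner output of 6 Agilent arrays with 2 colours was analysed. Per the file headers, the intensity columns of the deposited files are the scanner software's mean and background signals per spot and its processed signals. The deposited value table holds the authors' log2 ratios on a scale whose direction its columns do not state. Its 2 columns of each time matched, at 100% of 43790 spots within 0.001, the treated over untreated ratio of the other array of that time (0.203% to 0.235% matched their own array), with medians of -0.0325 to 0.0311, so direction here rests on the dye labels. The pair mean is the same either way. For the array's probe positions the genome build was not given in the sources used here.

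Signals were background-corrected (normexp, offset 50) and loess-normalised within arrays in limma 3.58.1 (R 4.3.3), with 2256 control spots at weight 0, spots flagged as outliers left out and saturated spots kept. Spots of a probe were averaged. Of 41174 probes, 30634 were well above background in a condition and 30577 had a value on every array; 22072 probes were named through RefSeq accessions. Up to 14.3% of negative-control spots on an array also carried the well-above-background mark in Cy3 and 2.55% in Cy5, so dim probes carry the less certain ratios. The number of arrays limits the precision. Dye-swapped arrays were averaged, because they hold the same RNAs, and limma tested the mean of the 3 times against 0 (2 residual degrees of freedom) and the slope on log2 time (1 residual degree of freedom), two-sided. P-values of the mean measure the spread between the 3 times, so a change with time enters them and the SE. P-values of the slope measure the distance of the 3 times from a line. Neither measures a spread between replicate RNAs of the same time, and part of either may be technical.

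Members and lists were chosen with earlier results of these data known. The rule for named genes was every member, list genes past 0.05 with a mean of at least 0.5 in size (or the largest where there was none), and the 3 nearest patterns to each member probe of that size. Replicate numbers mark the dye orientation in the labels; deviations of same-numbered arrays from their pair mean correlated at 0.765 to 0.843 between times. Alternatives covered signals, background, scaling, filters, saturation, replicates and times. A protein motif was not searched.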

Additional observations from a re-analysis of the deposited data

Results flagged for a closer look

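The log2 ratio of 2 member probes changed with the time of treatment by the test of the slope itself, in the reported processing. For Adamts5 (A_51_P233534) the slope was -0.32 per doubling of time, with ratios of -0.33, -0.76 and -0.97 at 1, 2 and 4 h. For Adamts4 (A_51_P234944) the slope was -0.28 per doubling of time, with ratios of 0.76, 0.54 and 0.20. Each rests on 3 points and 1 residual degree of freedom.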

How the results depend on the processing

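The deposited value table has the same pair means as the scanner's processed signals, so it is not a separate alternative. Against 4 member probes higher and 5 lower, both gave 0 higher and 2 lower. Taking 1 probe per gene gave 2 and 3, leaving out the 2 h sample gave 1 and 3, and median centring gave 1 higher. Without 1 dye orientation the number higher ranged from 4 to 7. The 2 falling slopes became 0 with processed signals, the deposited table and offset 16, and ranged from 0 to 1 without 1 dye orientation. For the 2-fold size (0 probes as reported), processed signals and the deposited table each gave 1 probe higher at 1 h, 1 lower at 2 h and 1 lower at 4 h, and offset 16 gave 1 lower at 2 h; without 1 dye orientation 0 to 1 were lower at 2 h. The direction turned for Adamts2 A_51_P227222 with median centring (-0.11) and for Timp1 A_52_P87713 without replicate 2 (-0.052, against 0.45 without replicate 1). The cause was not tested. Over member probes and alternatives, 216 mean responses kept direction and side of the threshold, 23 lost the call, 5 gained it and 2 turned. Calls lost with processed signals enter these counts again under the deposited table. Over all probes, 3214 passed upward and 3472 downward as reported, against 1033 and 933 with processed signals, 1680 and 7452 with median centring, 6268 and 5030 without replicate 2, 4540 and 5905 without replicate 1, and 927 and 861 without the 2 h sample; slopes numbered 60 rising and 74 falling, against 0 and 0 with processed signals or offset 16, 278 and 212 with median centring, 236 and 283 with no background correction, 17 and 30 without replicate 1, and 8 and 13 without replicate 2. With the replicate block on the 6 unaveraged arrays, 4 member probes were higher, 5 lower and 2 slopes falling, and no call among the members changed. The slide or scan block was not run because each array lay on its own slide and the files date the feature extraction of all 6 to the same day. Signal over background limits the dim probes, which include Adamts1 A_52_P213932, the Adamts4 probe, Adamts5 A_52_P70231, all Adamts9 probes, the Timp4 probe and the Adamts2 probes other than A_51_P227222.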
